A study of Populus alba x Populus glandulosa with 12 samples.

Results

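Within leaves of PagSUPa overexpression (OE) poplars, 8 of the 12 libraries of the series, gene expression varied along an axis that crossed both transgenic lines. PagSUPa is the gene that names the study, and the overexpressed construct's promoter is not given in the labels. All plants were hybrid poplar (Populus alba × P. glandulosa), and the tissue is labelled leaves, with no age or time. OE line 7 and OE line 2 have 4 libraries each, and nontransgenic plants (CK), called controls here, have 4. The labels do not say whether libraries came from separate plants, so every p-value below reflects the variation among these libraries only, and that variation may be technical.

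The 8 OE libraries were divided into a first set (line 2 replicates 1 and 3, line 7 replicates 1 and 2) and a second set (line 2 replicates 2 and 4, line 7 replicates 3 and 4). This division was found from the expression values of the same libraries. Every difference between the sets is therefore a description, with no test, p-value or standard error. Tests are given only for labelled groups, OE against control and line 7 against line 2. Values for each gene are in TPM, a length-corrected share of the transcripts of a library, and are listed in the order of replicates just given. A difference is the first set minus the second on the log2(TPM + 1) scale, averaged over the lines, and this scale understates changes of genes with low TPM. A gene is called apart when all 4 libraries of one set lay beyond all 4 of the other and the difference was at least 1 in size.

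A growing leaf first divides its cells and then enlarges them. Expansins, xyloglucan enzymes and pectin enzymes loosen and remodel the wall during enlargement, and the epidermis lays down a cuticle of wax and cutin. Some detoxification enzymes, protease inhibitors, metallothioneins and transcription factors of the WRKY, NAC and ERF families are known from mature, ageing or stressed leaves. The lists below hold whole families, and whether the libraries differed in leaf age or stress was not tested. Gene names below are those of the Arabidopsis gene that the deposited table pairs with each poplar gene, and the roles given are those known in Arabidopsis unless another plant is named.

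The sets did not form 2 discrete states but stretches of a gradient. The first principal component of the 8 OE libraries held 47.3% of their variance, and the second held 23.3%. With the mean of the second set placed at 0% and that of the first at 100% on the first component, the first set lay at 73.7%, 96.9%, 114% and 116%. The second set lay at 37.9%, -27.1%, -23.3% and 12.6%. Line 2 replicates 1 and 2 were the inner members of their sets, 73.7% against 37.9%, closer to each other than replicates 2 and 4 were within the second set. Controls, which had no part in the division, lay at 183%, 164%, 137% and 138%, beyond every OE library on the side of the first set. Across genes, libraries correlated at 0.931 to 0.981 within a set (12 pairs) and at 0.889 to 0.962 between sets (16 pairs). Each of the 8 libraries had its highest correlation with a library of its own set, and for 3 of the 8 that library was of its own line.

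**Figure D1:**
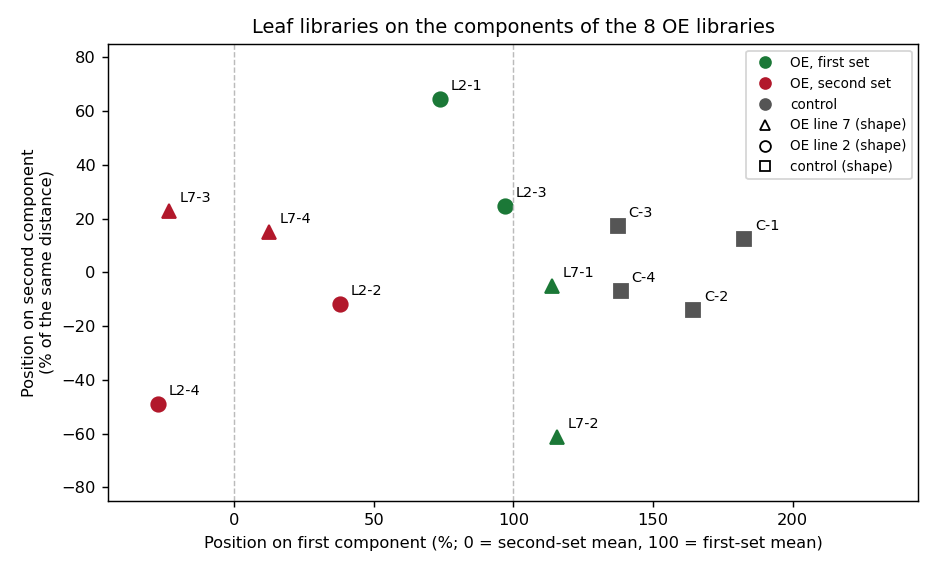
Position of each library on the first (x axis) and second (y axis) principal component of the 8 OE libraries, in percent of the distance between the 2 set means on the first component. Colours mark the sets and controls, shapes the lines (L2-1 is OE line 2 replicate 1, C-1 control replicate 1). The first set lies between 73.7% and 116%, the second between -27.1% and 37.9%, and the controls, projected afterwards, between 137% and 183%.

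The gene used to check the labels overlapped between the sets. The ZFP11 homolog (Potri.002G041700), a SUPERMAN relative with a zinc finger, was at 1247, 1714, 1551 and 1210 TPM in the first set and at 1426, 1353, 1502 and 1315 TPM in the second. Controls held 0, 0, 0 and 0.112 TPM. The sets overlapped, with a difference of 0.02, whereas OE leaves stood above controls by 10.42 on the log2 scale (SE 0.11, limma adjusted p = 1.26e-13). The table names no gene PagSUPa, so whether this homolog is the overexpressed gene is not shown here.

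A gene counted as measured when it had at least 1 TPM in at least 4 OE libraries. Of 23513 genes measured in OE libraries, 360 were apart and higher in the first set (1.53% of genes) and 560 were apart and higher in the second (2.38%). Since the libraries were divided by these same values, nothing is read from those shares, which serve as the background for the gene lists. Together they make 3.91% of genes, so a short list with no gene apart is near that share. The median difference of all genes was -0.02. Counted over all 23513 genes, apart or not, the difference reached 1 within each line alone in 239 genes higher in the first set. The count was 431 for genes higher in the second. Among the 920 genes apart, the difference was larger in line 7 for 642, with a median size of 1.64 in line 7 and 1.27 in line 2. Line 2 replicate 1 was the lowest first-set library in 287 of the 360 genes, and line 2 replicate 2 the lowest second-set library in 422 of the 560. A difference of 2 was reached by 56 and 131 genes. Without any limit on its size, 1298 genes (5.52%) lay higher in all first-set libraries and 2396 (10.2%) in all second-set libraries. Of the genes apart, 26 of the 360 and 45 of the 560 stayed below 1 TPM in every library of the other set and passed the expression filter only through the set in which they were high. At the threshold itself, a methionine synthase homolog (Potri.004G190900) was just inside, at 83, 86.6, 109 and 111 TPM in the first set and 77.9, 35.5, 35.4 and 53.4 TPM in the second. Just outside was a gene of an ACT domain protein (Potri.008G052900), at 2.02, 3.15, 5.13 and 6 TPM in the first set and 1.98, 1.1, 1.35 and 1.29 TPM in the second.

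**Figure D2:**
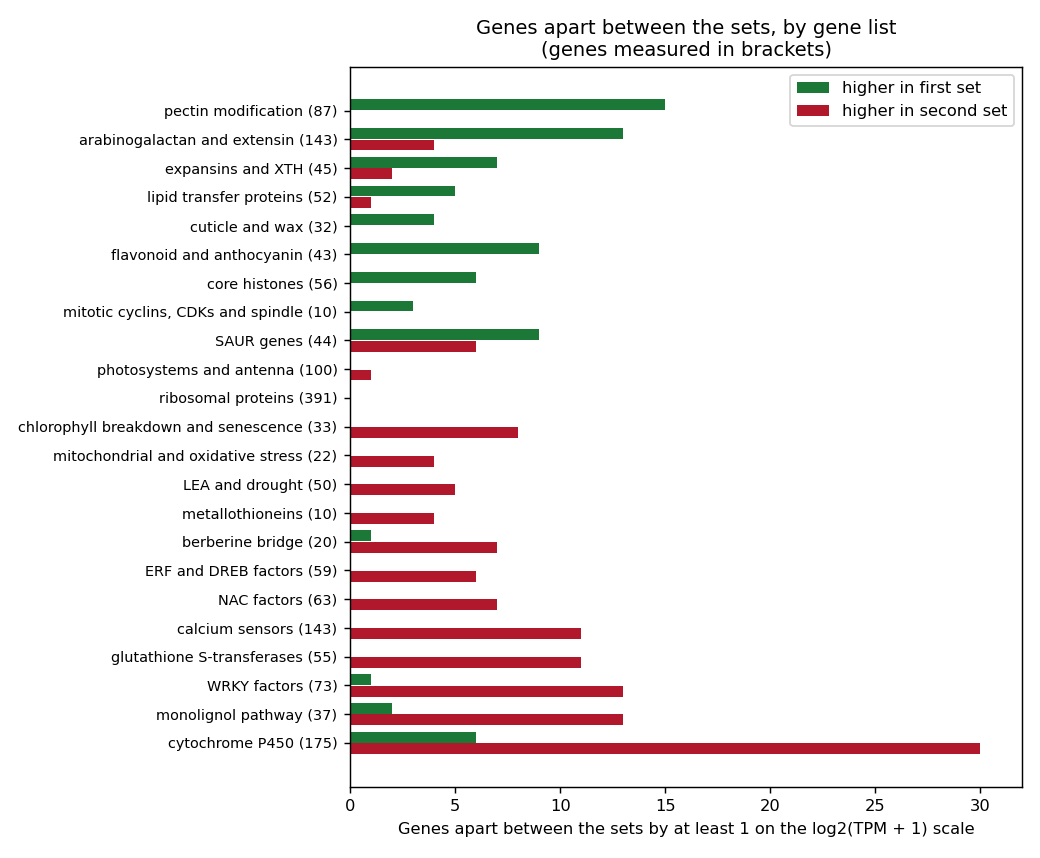
Number of genes apart between the sets in 23 gene lists (x axis), higher in the first set (green) or in the second (red); the number of genes measured in each list is in brackets. Wall, cuticle, flavonoid and division lists held genes higher in the first set, with 15 of 87 pectin genes, and detoxification and transcription factor lists genes higher in the second, with 30 of 175 cytochrome P450 genes; no gene of 391 ribosomal proteins was apart.

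Genes apart in lists of cell wall structure and remodelling were mostly higher in the first set, while the means of these lists overlapped between the sets. Line 2 replicate 1 had the lowest first-set means. On the log2(TPM + 1) scale they were 2.976 for pectin genes, 3.77 for expansin and xyloglucan enzyme genes and 3.82 for wall glycoprotein genes. The highest second-set means of the same lists were 2.983, 4.12 and 3.99. Of 87 pectin genes measured, 15 were apart, each higher in the first set, and the median difference of the list was 0.60. A pectate lyase homolog (Potri.008G182200), of a family that cleaves pectin, was at 29.6, 40.6, 52.9 and 39.4 TPM in the first set, 3.89, 1.34, 0.476 and 9.91 TPM in the second and 243, 190, 147 and 120 TPM in controls. The 3 groups did not overlap, with the first set between the second and the controls. A pectin methylesterase inhibitor homolog (Potri.015G128400), of a family that restrains the removal of methyl groups from pectin, followed the same order at 17.0, 11.2, 27.6 and 45.5 TPM, then 1.46, 0.636, 1.60 and 5.61 TPM, then 152, 148, 239 and 220 TPM in controls. Against controls both fell in OE leaves, the pectate lyase by 3.79 (SE 0.98, limma adjusted p = 0.00721) and the inhibitor by 4.51 (SE 0.81, limma adjusted p = 0.000968).

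Of 45 expansin and xyloglucan endotransglucosylase/hydrolase (XTH) genes, 7 were apart and higher in the first set and 2 in the second. The largest difference of any named gene higher in the first set, 3.60, belonged to an XTH5 homolog (Potri.003G159700), an enzyme that cuts and rejoins xyloglucan chains. It was at 68.5, 117, 274 and 376 TPM in the first set, 39.3, 16.2, 0.737 and 31.7 TPM in the second and 208, 499, 319 and 120 TPM in controls. The sets did not overlap, the first set overlapped the controls, and line 7 spanned the wider range. A homolog of the wall-loosening protein EXPB3 (Potri.019G101900) was likewise at 51.1, 134, 112 and 75.5 TPM in the first set, against 17.7, 3.01, 5.25 and 19.7 TPM in the second, with controls at 177, 130, 49.3 and 67.0 TPM. Neither XTH5 nor EXPB3 passed the test of OE against control (limma adjusted p = 0.114 and 0.146). The family was not uniform: an EXPB2 homolog (Potri.014G066300) was at 7.11, 2.77, 2.79 and 5.31 TPM in the first set and 22.4, 28.6, 28.2 and 18.6 TPM in the second.

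Wall glycoproteins showed the same order in most genes apart. Of 143 arabinogalactan and extensin genes, 13 were apart and higher in the first set and 4 in the second. PRP4 is a proline-rich wall protein with 2 homologs among the named genes. The homolog Potri.009G129900 was at 45.4, 75.7, 108 and 129 TPM in the first set, 9.79, 4.03, 1.54 and 26.4 TPM in the second and 1016, 1140, 689 and 638 TPM in controls. Every first-set library lay above the second set and far below every control. It fell in OE leaves by 5.04 (SE 1.01, limma adjusted p = 0.0018), and its copy Potri.004G168600 by 5.68 (SE 0.99, limma adjusted p = 0.000834). AGP14 (Potri.003G220901), an arabinogalactan peptide, was among the most abundant of these, at 1819, 1539, 2037 and 1947 TPM in the first set, 1237, 591, 647 and 1055 TPM in the second and 4020, 3321, 4058 and 4082 TPM in controls.

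A few genes of surface lipids were apart, most of them higher in the first set, and the list means overlapped between the sets. Of 32 cuticle and wax genes, 4 were apart, all 4 higher in the first set, and the median difference was 0.56. CER1, an enzyme of wax alkane synthesis (Potri.014G180300), was at 7.11, 18, 21.7 and 24.9 TPM in the first set, 3.07, 3.73, 1.85 and 3.97 TPM in the second and 290, 190, 114 and 127 TPM in controls. Its first set lay above its second set and far below the controls, with a fall of 4.33 in OE leaves (SE 0.62, limma adjusted p = 0.000246). DCR (Potri.015G147300), an acyltransferase of cutin synthesis, was at 74.5, 118, 141 and 143 TPM, then 61.6, 58.6, 24.3 and 62.8 TPM in the second set, then 737, 404, 326 and 268 TPM in controls. Of 52 lipid transfer protein genes, 5 were apart and higher in the first set and 1 in the second, and differences were positive in 28 and negative in 24. The most abundant of those named (Potri.006G065500) had 248, 412, 758 and 1145 TPM in the first set, 128, 60.7, 19.3 and 231 TPM in the second and 3578, 2946, 1697 and 2769 TPM in controls. 3 GDSL lipase homologs, of a family with members in cutin assembly in tomato, were among the 15 largest differences higher in the first set.

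**Figure D3:**
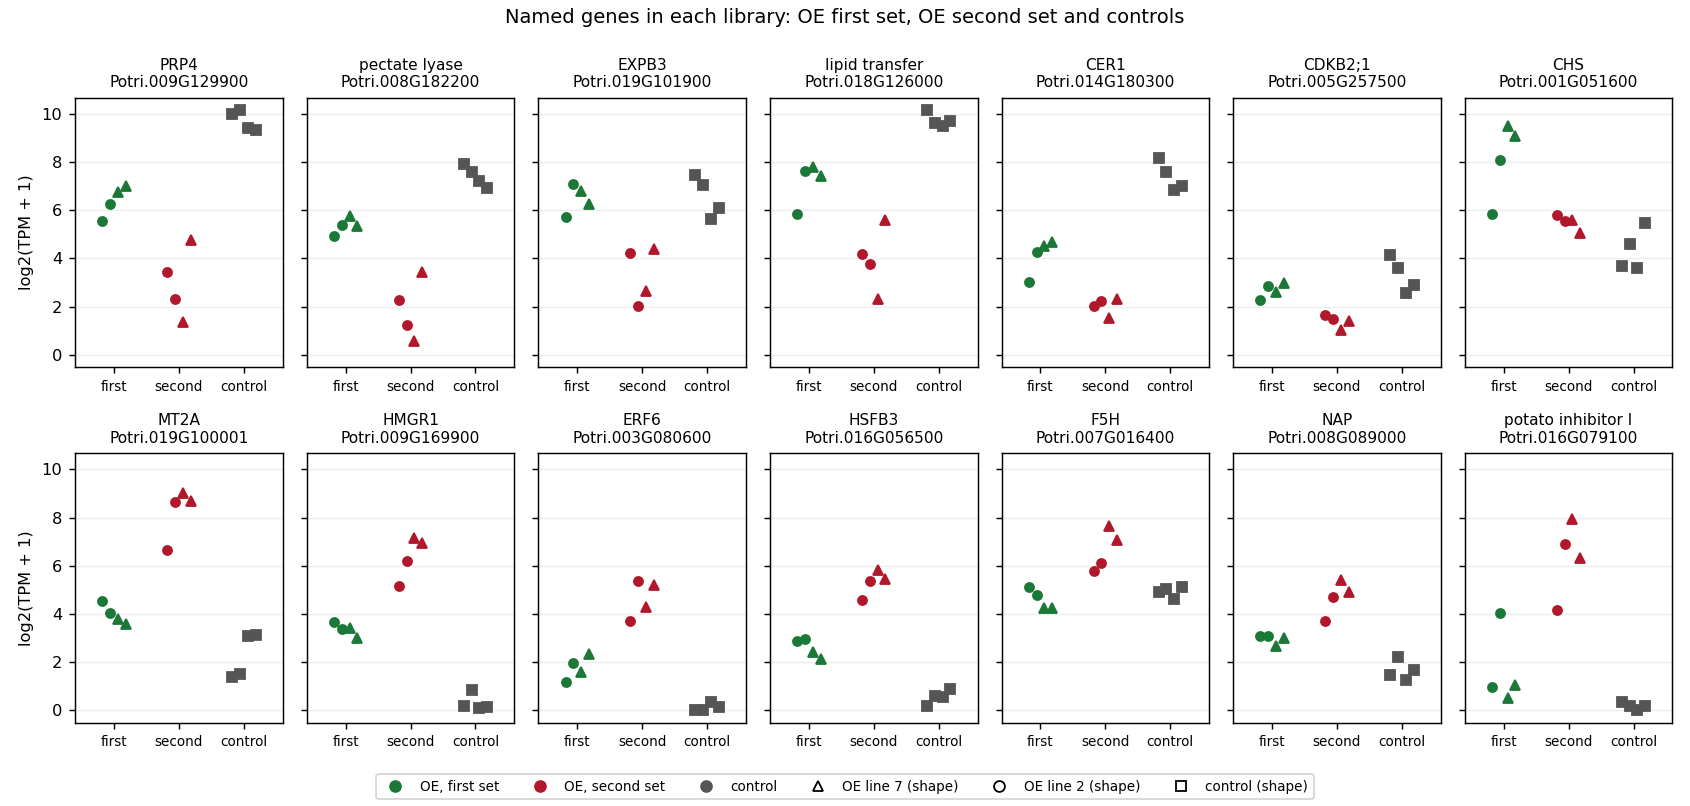
Level of 14 genes in each library as log2(TPM + 1) (y axis), in the OE first set, the OE second set and the controls (x axis), with shapes for the lines. The upper row shows genes higher in the first set and the lower row genes higher in the second; EXPB3, CDKB2;1, CHS and F5H have controls that overlap an OE set, and PRP4 has every control above every OE library.

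Among genes of dividing cells, mitotic genes were lower in the second set in part, and no DNA replication gene was apart on the main scale. Of 38 mitotic genes in the deposited table, 10 passed the expression filter. Of these 10, 3 were apart, all 3 higher in the first set, and the median difference was 0.69. CYCB1;4 (Potri.001G272000), not apart, stayed below 1 TPM in every second-set library. It passed the filter only through the first set, so the median is partly shaped by the filter. Only 1 of the 10 reached a mean of 5 TPM, with a difference of -0.12, so the list rests on genes of low level. In OE leaves 6 of the 10 fell and none rose, where 34% of all genes tested fell and 22.1% rose. Of 19 DNA replication genes none was apart, with 9 positive and 10 negative differences and a median of -0.03. Without any limit on size, 6 of the 19 lay higher in all first-set libraries and 2 in all second-set libraries (5.52% and 10.2% of all genes). With a pseudocount of 0.1, 6 of the 19 were apart and higher in the first set, as were 495 of all genes. CDKB2;1 (Potri.005G257500), a kinase of the entry into mitosis, was at 3.77, 6.33, 5.13 and 6.99 TPM in the first set, 2.1, 1.76, 1.06 and 1.62 TPM in the second and 16.8, 11, 4.90 and 6.42 TPM in controls. AUR1 (Potri.006G235000), a spindle kinase, was at 2.80, 5.03, 4.56 and 4.12 TPM, then 1.40, 1.11, 1.26 and 1.23 TPM in the second set, then 9.99, 8.12, 2.51 and 3.84 TPM in controls. For both genes the first set overlapped control replicates 3 and 4, and control replicates 1 and 2 were the highest libraries. CDKB2;1 fell in OE leaves by 1.26 (SE 0.42, limma adjusted p = 0.0251), a call lost without control replicate 1 or 2 (the highest adjusted p was 0.0958 with any 1 library left out), and AUR1 did not pass (limma adjusted p = 0.0657).

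Of 56 core histone genes, 6 were apart and higher in the first set, though the median difference of the list was 0.05 and 26 of the 56 were negative. Over the 47 histone genes with a mean of at least 5 TPM the median was -0.09. The histone H2A homolog HTA7 (Potri.005G026500) was at 14.4, 24.6, 20.4 and 27.9 TPM in the first set, 8.51, 7.39, 9.05 and 8.37 TPM in the second and 80.9, 36.8, 18.5 and 30.3 TPM in controls. None of 15 kinesins measured was apart, and 14 of the 15 had a positive difference. With a pseudocount of 0.1, 3 kinesins were apart and higher in the first set. All 15 fell in OE leaves, against 34% of all genes tested. POK2 (Potri.004G145800), the phragmoplast kinesin named in the series title, stood at 0.644, 0.779, 0.617 and 0.981 TPM in the first set, 0.547, 0.248, 0.461 and 0.598 TPM in the second and 4.84, 3.32, 1.48 and 1.47 TPM in controls. Its sets did not overlap, at levels too low to pass the filter among OE libraries. STOMAGEN (Potri.002G249901), a secreted peptide that promotes stomata, had 4.78, 10.9, 10.4 and 13.9 TPM in the first set, 3.35, 0.718, 0.373 and 5.57 TPM in the second and 85.5, 42.2, 32.1 and 35.4 TPM in controls. Line 2 replicate 1 lay below line 7 replicate 4, so this gene was not apart, and it fell in OE leaves by 3.08 (SE 0.63, limma adjusted p = 0.00214).

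SAUR genes, small auxin-responsive genes of which many act in cell enlargement, were divided. Of 44 measured, 9 were apart and higher in the first set and 6 in the second. The median difference was 0.32, and -0.06 over the 24 genes with a mean of at least 5 TPM. Potri.009G126700 was at 12.6, 15.8, 13.7 and 15.5 TPM in the first set, 4.08, 2.14, 1.59 and 3.10 TPM in the second and 55.0, 58.7, 36.1 and 43.1 TPM in controls. Potri.001G060400 showed the opposite order, at 41.7, 7.10, 13.7 and 8.62 TPM in the first set, 88.5, 89.5, 144 and 96.3 TPM in the second and 0.107, 0.267, 0.554 and 0.201 TPM in controls. Against controls Potri.009G126700 fell by 2.70 (SE 0.56, limma adjusted p = 0.00224) and Potri.001G060400 rose by 4.95 (SE 0.80, limma adjusted p = 0.000526). For both, the first set lay between the second set and the controls.

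Photosynthesis genes differed little, and most differences were positive. Of 100 photosystem and antenna genes, 87 had a positive difference, with a median of 0.35. The 1 gene apart, the PSBR homolog Potri.001G438800, was higher in the second set. PSBX (Potri.006G144000), a subunit of photosystem II, was at 6469, 6096, 6236 and 5235 TPM in the first set, 4428, 3470, 4104 and 5215 TPM in the second and 8207, 6161, 8214 and 7691 TPM in controls. The median difference was 0.34 for 31 Calvin cycle genes and 0.42 for 23 photorespiration genes, with none apart in either. HEMA1 (Potri.002G107800), an early enzyme of chlorophyll synthesis, was at 285, 355, 327 and 310 TPM in the first set, 153, 195, 285 and 243 TPM in the second and 926, 863, 772 and 807 TPM in controls. The sets met at 285 TPM, and the gene fell in OE leaves by 1.69 (SE 0.20, limma adjusted p = 7.82e-05). A pair of PSBR homologs ran the other way: Potri.001G438800 was at 24.1, 9.01, 20.6 and 63.4 TPM in the first set and 74.9, 103, 102 and 92.2 TPM in the second.

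Flavonoid genes followed the division only in part. Of 43 measured, 9 were apart, all 9 higher in the first set, and the median difference of 1.35 was the highest of the 64 lists. A chalcone synthase homolog (Potri.001G051600), the enzyme of the first committed step of flavonoid synthesis, was at 56.1, 267, 718 and 542 TPM in the first set, 55.3, 46.5, 47.6 and 32.6 TPM in the second and 11.8, 23.1, 11.1 and 43.9 TPM in controls. Line 2 replicate 1 thus lay at the level of the second set, and the other first-set libraries lay well above it. The mean of the list repeated this pattern at 4.18, 5.29, 6.02 and 6.02 on the log2(TPM + 1) scale in the first set, against 3.95 to 4.32 in the second set and 3.92 to 4.55 in controls. On this mean the second set lay within the range of the controls. The mean joins genes of opposite change, since 18 of the 43 rose in OE leaves and 12 fell (22.1% and 34% of all genes tested). The chalcone synthase homolog rose in OE leaves by 2.48 (SE 0.85, limma adjusted p = 0.0279), a call lost without control replicate 1, 2 or 3. A flavonoid 3'-hydroxylase homolog (Potri.018G051300), which adds a hydroxyl group to the B ring, instead fell in OE leaves by 4.02 (SE 0.99, limma adjusted p = 0.00554). It was at 8.86, 25.3, 94.9 and 255 TPM in the first set, 14.9, 6.38, 1.90 and 13.8 TPM in the second and 730, 510, 191 and 170 TPM in controls. Cytochrome b5 isoform D (Potri.014G019200), an electron donor to cytochrome P450 enzymes, resembled chalcone synthase, at 76.6, 396, 1149 and 1076 TPM in the first set, 60.7, 48.3, 44.5 and 45.1 TPM in the second and 15.8, 51.1, 21.2 and 106 TPM in controls.

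Monolignol genes, of the branch of phenylpropanoid metabolism that leads to lignin, were more often apart in favour of the second set. Of 37 measured, 13 were apart and higher in the second set and 2 in the first, and 15 had a positive difference. The means of the list nearly met, at 4.68 to 4.850 on the log2(TPM + 1) scale in the first set and 4.861 to 5.59 in the second. Ferulate 5-hydroxylase (Potri.007G016400), which directs the pathway to syringyl units, was at 33.3, 26.3, 18 and 18.1 TPM in the first set, 54.4, 68.7, 198 and 135 TPM in the second and 28.8, 31.7, 23.9 and 34.1 TPM in controls. The second set lay above both other groups, and OE against control did not pass (limma adjusted p = 0.337). 4CL2 (Potri.001G036900), which activates cinnamic acids, was at 127, 129, 95.4 and 77.8 TPM, then 184, 349, 512 and 344 TPM in the second set, then 53.4, 64.6, 41.7 and 35.2 TPM in controls, and it rose in OE leaves by 1.94 (SE 0.49, limma adjusted p = 0.00624). PAL1 (Potri.010G224100), the entry enzyme, had 10.6, 5.22, 5.85 and 8.74 TPM in the first set, 12.3, 26.0, 47.8 and 25.4 TPM in the second and 22.2, 20.8, 16.3 and 19.4 TPM in controls. HCT (Potri.005G028000), the shikimate transferase of the same pathway, had a positive difference of 1.69 with sets that overlapped, at 46.4, 52.9, 29.7 and 18.2 TPM in the first set, 25.3, 3.27, 7.97 and 12.7 TPM in the second and 77.3, 51.8, 32.6 and 31.6 TPM in controls.

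Detoxification and metal-binding genes that were apart were mostly higher in the second set. Of 55 glutathione S-transferases, which conjugate glutathione to toxic compounds, 11 were apart, all 11 higher in the second set. In OE leaves 41 of the 55 rose and 3 fell, where 22.1% of all genes tested rose and 34% fell. Differences were negative in 44 of the 55 and positive in 11. The GSTU19 homolog Potri.001G437400 was at 4.76, 5.77, 3.88 and 3.67 TPM in the first set, 13.2, 29.3, 40.3 and 21.3 TPM in the second and 1.26, 1.31, 1.70 and 1.75 TPM in controls. Another GSTU19 homolog, Potri.011G140400, ran the other way with overlapping sets. It was at 1.62, 4.60, 10.5 and 31.8 TPM in the first set and 2.22, 0.310, 0.025 and 1.89 TPM in the second. Controls held 214, 70.8, 20.9 and 16.3 TPM, and it fell in OE leaves by 3.61 (SE 0.91, limma adjusted p = 0.00617). Of 175 cytochrome P450 genes, 30 were apart and higher in the second set and 6 in the first. A CYP96A10 homolog (Potri.005G064400) was at 7.09, 12.6, 6.04 and 3.5 TPM in the first set, 24.3, 91.9, 290 and 279 TPM in the second and 0.203, 0.364, 1.19 and 0.571 TPM in controls. It rose in OE leaves by 4.29 (SE 1.14, limma adjusted p = 0.00812). Berberine bridge enzymes, FAD-binding oxidases, had 7 of 20 genes apart and higher in the second set and 1 in the first. The deposited table holds 52 such genes, and the other members did not pass the expression filter. Potri.001G461900, Potri.001G461700 and Potri.011G162900 stayed below 1 TPM in every first-set library. They passed the filter only through the second set, where they were high, so the share of this list is partly shaped by the filter. The median difference of that list was -0.74.

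Of 10 metallothionein genes, 4 were apart, all 4 homologs of MT2A, a small cysteine-rich metal-binding protein, and all higher in the second set. The homolog Potri.019G100001 was at 22.5, 15.3, 12.8 and 11 TPM in the first set, 99.7, 401, 522 and 408 TPM in the second and 1.61, 1.83, 7.47 and 7.62 TPM in controls. The groups stood apart in that order, the second set highest. The homolog Potri.013G131200 was at 55.9, 68.6, 39.3 and 44.9 TPM in the first set, 207, 748, 744 and 517 TPM in the second and 105, 119, 159 and 158 TPM in controls, so that controls lay between the sets. Reads of such similar copies are divided by estimation, and their single values are uncertain. The homolog of HMGR1 (Potri.009G169900), the regulated enzyme of the mevalonate pathway to sterols, was at 11.5, 9.47, 9.60 and 7.11 TPM in the first set, 34.5, 72.7, 141 and 121 TPM in the second and 0.122, 0.816, 0.078 and 0.114 TPM in controls. It rose in OE leaves by 4.54 (SE 0.82, limma adjusted p = 0.000981).

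Protease inhibitors varied widely, and the list did not follow the division cleanly. The largest difference of any named gene, -4.68, belonged to a potato inhibitor I homolog (Potri.016G079100), of a family that blocks serine proteases of feeding insects. It was at 0.977, 15.6, 0.440 and 1.04 TPM in the first set, 16.8, 118, 244 and 79.3 TPM in the second and 0.282, 0.140, 0 and 0.132 TPM in controls. Line 2 replicate 3, of the first set, lay just below line 2 replicate 2, of the second. For KTI1 (Potri.007G111600), a Kunitz trypsin inhibitor, line 2 replicate 3 lay above it, at 2.02, 14.9, 0.636 and 0.913 TPM in the first set, 9.55, 79.7, 93.8 and 37.4 TPM in the second and 0.085, 0, 0.438 and 2.22 TPM in controls. The mean of the list likewise was 4.42 on the log2(TPM + 1) scale in line 2 replicate 3 and 3.94 in line 2 replicate 2, so the sets overlapped. Of 34 inhibitor genes, 3 were apart, all 3 higher in the second set, and 26 had a negative difference, with a median of -0.91. Jasmonate genes, which are known to act upstream of many inhibitors after wounding, had a median difference of 0.06 over 55 genes, with 1 apart and higher in the first set and 2 in the second. The chitinase EP3 homolog Potri.019G093700, an enzyme that degrades chitin, was at 1.09, 1.78, 0.849 and 0.257 TPM in the first set, 6.73, 14.2, 44.3 and 52.5 TPM in the second and 0.043, 0, 0 and 0.040 TPM in controls.

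WRKY, NAC, ERF and DREB transcription factor genes that were apart were, with 1 exception, higher in the second set. Of 73 WRKY genes, 13 were apart and higher in the second set and 1 in the first. All 7 of 63 NAC genes and all 6 of 59 ERF and DREB genes that were apart were higher in the second set. The median differences were -0.50 for WRKY, -0.39 for NAC and -0.36 for ERF and DREB genes. The list means did not overlap between the sets for WRKY and NAC genes and did overlap for ERF and DREB genes. For WRKY genes the gap was narrow, with a highest first-set mean of 3.73 and a lowest second-set mean of 3.76. ERF6 (Potri.003G080600), an ethylene and stress response factor, was at 1.23, 2.89, 2.02 and 4.03 TPM in the first set, 12, 40.5, 18.8 and 36.3 TPM in the second and 0, 0, 0.278 and 0.101 TPM in controls. HSFB3 (Potri.016G056500), a class B heat shock factor, was at 6.25, 6.81, 4.31 and 3.38 TPM, then 23.2, 40.0, 56.5 and 42.6 TPM in the second set, then 0.138, 0.515, 0.445 and 0.871 TPM in controls. Both rose in OE leaves, ERF6 by 3.08 (SE 0.79, limma adjusted p = 0.007) and HSFB3 by 3.40 (SE 0.73, limma adjusted p = 0.00271). The heat shock list as a whole did not move with HSFB3, with a median difference of -0.03 over 100 genes. CML38 (Potri.005G259900), a calcium sensor, was at 18, 11.4, 19.1 and 78.5 TPM in the first set, 138, 274, 97.3 and 129 TPM in the second and 6.44, 7.65, 13.4 and 35.3 TPM in controls.

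Of 33 genes of chlorophyll breakdown and senescence, 8 were apart, all 8 higher in the second set, and the median difference was -0.50. NAP (Potri.008G089000), a NAC factor that promotes leaf senescence, was at 7.55, 7.56, 5.37 and 6.97 TPM in the first set, 12.1, 25.3, 41.0 and 29.1 TPM in the second and 1.77, 3.69, 1.42 and 2.16 TPM in controls. NAC042 (Potri.001G080900), also known as JUNGBRUNNEN1 and a factor that delays senescence in Arabidopsis, ran the same way at 5.97, 4.98, 5.95 and 3.96 TPM, then 14.1, 22.4, 25.1 and 22.8 TPM in the second set, then 0.087, 0.086, 0.037 and 0 TPM in controls. Thus a promoter and a repressor of senescence were both highest in the second set, and both rose in OE leaves, NAP by 2.17 (SE 0.51, limma adjusted p = 0.00428) and NAC042 by 3.46 (SE 0.48, limma adjusted p = 0.000217). ASN1 (Potri.009G072900), an asparagine synthetase induced by darkness and sugar starvation, was at 13.5, 7.96, 2.32 and 11.1 TPM in the first set, 21.2, 54.0, 47.1 and 70.2 TPM in the second and 4.83, 31.8, 2.45 and 8.61 TPM in controls. The salicylate marker PR1 was not uniform, since Potri.009G082800 had a positive difference and Potri.001G288600 a negative one, and both overlapped between the sets. Potri.001G288600 was at 33.1, 87.7, 77.1 and 89.8 TPM in the first set, 69.7, 312, 146 and 106 TPM in the second and 0.202, 5.84, 3.22 and 7.19 TPM in controls.

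**Figure D4:**
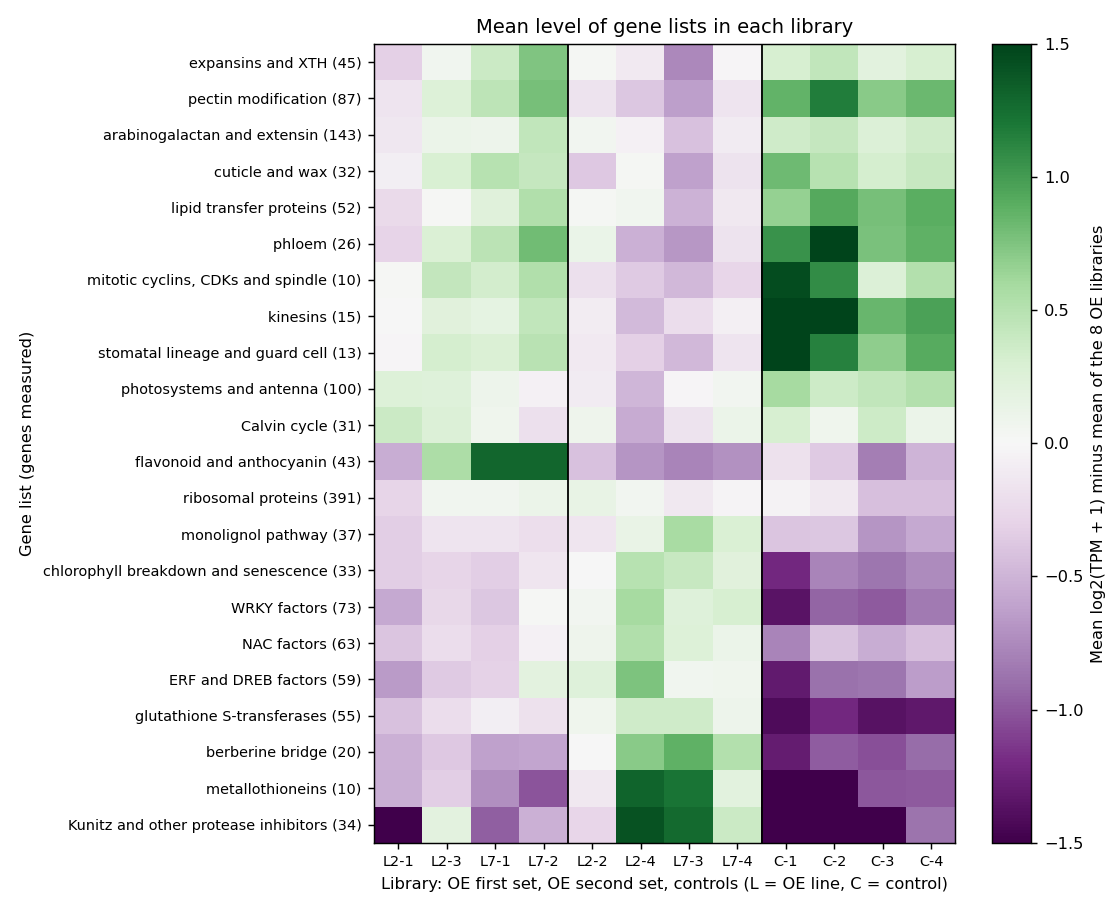
Mean log2(TPM + 1) of the measured genes of 22 lists (rows) in each library (columns: OE first set, OE second set, controls), less the mean of the 8 OE libraries; colours saturate at 1.5 in either direction. Metallothionein and senescence means separate the sets, the flavonoid mean is high in 3 of the 4 first-set libraries, and ribosomal protein means vary little.

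Housekeeping lists had median differences near 0. None of 391 ribosomal protein genes, 53 proteasome genes or 19 autophagy genes was apart, and their median differences were -0.05, -0.01 and -0.07. Over all genes measured 3.91% were apart, so none apart among 53 or 19 genes is near that share. Of 204 immune receptor genes 1 was apart, higher in the second set. Of 40 circadian clock genes 2 were apart (5%, near the share of all genes), both higher in the second set. PRR5 (Potri.012G005900), a pseudo-response regulator of the clock, was 1 of them, at 4.86, 3.32, 1.80 and 1.07 TPM in the first set, 5.38, 6.2, 11.1 and 11.3 TPM in the second and 0.784, 1.18, 7.17 and 2.42 TPM in controls. The hour of sampling is not given in the labels.

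Controls lay on the side of the first set for most genes apart. Among the 360 genes higher in the first set, every control was above every second-set library in 313 (86.9%, against 28.3% of all 23513 genes). Every control was above every OE library in 159 of them (44.2%, against 17.5% of all genes). Among the 560 genes higher in the second set, every control was below every second-set library in 513 (91.6%, against 24.8% of all genes) and below every OE library in 344 (61.4%, against 15.5%). In the test of OE against control over 24926 genes, 5511 (22.1%) rose and 8469 (34% of genes) fell, with a median change of all genes of -0.13. With median ratio scaling 7514 rose and 6780 fell. Of the 360 genes, 234 (65%) fell in OE leaves and 9 (2.5%) rose, with a median change of -1.52. Of the 560 genes, 406 (72.5%) rose and 2 (0.357%) fell, with a median change of 1.74. These counts share the OE libraries with the division. Control replicates 1 and 2 stood farthest out on the first component, and without both of them 85 of the 360 fell and 185 of the 560 rose, with 3822 rises and 3050 falls over all genes.

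**Figure D5:**
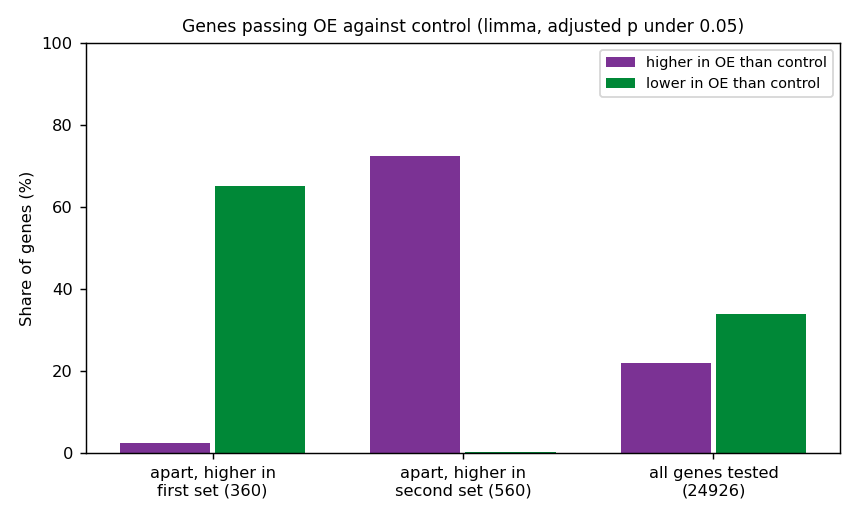
Share of genes (y axis, percent) that passed OE against control (limma, adjusted p under 0.05) as higher (purple) or lower (green) in OE leaves, for the 360 genes higher in the first set, the 560 higher in the second and all 24926 genes tested. Falls make up 65% of the first group and rises 72.5% of the second, against 34% and 22.1% of all genes.

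The division crossed both lines, and the lines were compared separately. Line 7 against line 2 gave 0 genes at an adjusted p under 0.05 (limma), with 451 genes at an unadjusted p under 0.05. With the set as a covariate the count was again 0, with 751 genes at an unadjusted p under 0.05. The genes of smallest p that were lower in line 7 included CSD2 (Potri.004G216700), a copper/zinc superoxide dismutase of the chloroplast, at 6.67, 5.34, 7.51 and 10.2 TPM in line 7 (replicates 1 to 4) and 43.6, 26.2, 15.3 and 21.4 TPM in line 2. A pair of cupredoxin genes, which encode copper-binding proteins, was also lower in line 7, with Potri.002G101300 at 6.70, 3.29, 4.57 and 4.27 TPM in line 7 and 39.1, 26.5, 17.0 and 11.9 TPM in line 2. The lines did not overlap in either gene, and neither passed after adjustment.

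The second component ordered the libraries differently, with line 2 replicate 1 at one end and line 7 replicate 2 and line 2 replicate 4 at the other. Its leading genes were chosen by their weight on that component. RL1 (Potri.009G116600), a small MYB-like factor of the RADIALIS family, was at 399, 739, 266 and 81.8 TPM in the first set and 135, 107, 148 and 127 TPM in the second, with controls at 9.15, 1.39, 50.0 and 17.8 TPM. A homolog of FT (Potri.010G179700), the mobile flowering signal, was at 13.7, 11.3, 5.25 and 2.46 TPM in the first set and 2.90, 0.806, 4.09 and 7.93 TPM in the second, with controls at 0.042, 0.147, 1.31 and 0.237 TPM. At the other end, CBF4 (Potri.012G134100), a drought and cold response factor, was at 4.38, 6.07, 12.3 and 67.1 TPM in the first set and 61.7, 214, 13.5 and 24.9 TPM in the second. MYB73 (Potri.014G035100) was at 0.218, 0.795, 1.46 and 26.7 TPM in the first set and 6.04, 20.2, 0.380 and 1.35 TPM in the second. For MYB73, line 7 replicate 2 of the first set resembled line 2 replicate 4 of the second. For CBF4, line 7 replicate 2 (67.1 TPM) was nearest line 2 replicate 2 (61.7 TPM), and both lay below line 2 replicate 4 (214 TPM).

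Markers of leaf cell types were read for the whole tissue, in which fewer cells of a type and less RNA per cell cannot be told apart. The marker genes tested numbered 18 for phloem, 9 for xylem, 7 for mesophyll, 5 for guard cells, 2 for epidermis and 2 for trichomes. None of the tested markers of these 6 cell types was apart, where 3.91% of all genes measured were. With so few genes that absence is near the share of all genes. No meristem marker passed the expression filter. Mesophyll markers summed to 32484 to 51417 TPM in the first set, 23292 to 37854 TPM in the second and 43721 to 52593 TPM in controls. Phloem markers summed to 167 to 445 TPM in the first set, 107 to 238 TPM in the second and 384 to 805 TPM in controls, so that their sums moved with the wall and cuticle genes in part while the sets overlapped. Xylem markers summed to 19 to 102 TPM in the first set, 17.5 to 94.8 TPM in the second and 248 to 362 TPM in controls. Guard cell markers summed to 68.4 to 97.1 TPM in the first set, 67.2 to 87.5 TPM in the second and 112 to 143 TPM in controls. Epidermis markers summed to 170 to 259 TPM in the first set, 76.0 to 344 TPM in the second and 247 to 338 TPM in controls. Trichome markers summed to 36.4 to 59.3 TPM in the first set, 51.8 to 72.9 TPM in the second and 43.6 to 65.8 TPM in controls. Meristem markers summed to at most 0.928 TPM in any library. The part of cell composition in the differences between the sets was not tested.

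Library composition differed little between the sets. OE libraries held 22710 to 24284 genes at 1 TPM or more, and the 10 most abundant genes held 9.62% to 16.2% of the TPM of an OE library. In each OE library the most abundant gene was a homolog of MT3, a metallothionein (Potri.001G400100), at 17209 to 48047 TPM in the first set and 29518 to 57814 TPM in the second. No libraries were identical. TPM keep no record of depth, so no counting interval is given, and as shares of 1 total they are not independent of each other.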

How the data were processed

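RNA of poplar leaves was read from oligo(dT)-primed cDNA sequenced as DNA nanoballs, per the labels' protocols. The authors deposited TPM for 34749 genes in 12 libraries. The submitters' processing notes name Cutadapt, FastQC and Salmon. Settings, genome build and annotation: not given in the sources used here. Depth is unknown.

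The deposited TPM were put on a log2(TPM + 1) scale. Genes with at least 1 TPM in at least 4 of the libraries fitted were kept. Differences between the sets came from a linear model of the 8 OE libraries with line as a covariate. OE against control (12 libraries, 3 groups, mean of both lines) and line 7 against line 2 (8 libraries) were tested with limma 3.58.1 in R 4.3.3 (eBayes with trend), two-sided, with Benjamini-Hochberg adjustment over all genes at 0.05, after the fits were tested on simulated data. The check of pairing used the deviations of same-numbered libraries, given with the alternatives in the closing section.

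The division, the 64 gene lists (matched by Arabidopsis locus, name or description) and the genes were chosen with earlier results of these data known. Named genes were the ZFP11 homolog, the 15 largest differences each way among annotated genes of mean TPM at least 5, the 5 largest in TPM each way, up to 5 members of lists with at least 30% of genes apart, up to 3 members of chosen lists, the 3 genes each way of smallest p between the lines, and genes next to the threshold (115 genes). A further 33 genes, and those of the second component, were named after their values were seen. Alternatives were pseudocounts of 0.1 and 5, median ratio scaling, no filter, quantile normalization, a minimum mean TPM of 5, a replicate block, eBayes without trend, other limits of the difference and leaving out each library. Leaving out line 2 replicates 1 and 2 together, or control replicates 1 and 2 together, was added after the data were seen.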

Additional observations from a re-analysis of the deposited data

Results flagged for a closer look

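Among 345 groups of 4 libraries (115 genes in 3 labelled groups), 14 held 1 library far from the other 3. For 4 like libraries chance alone sets apart about 1 in 20 groups. Each OE line holds libraries of both sets, and many of these genes were chosen for their difference between the sets. That rate therefore cannot be set against the 14. In OE line 2 these included both chalcone synthase homologs, with replicate 3 at 267 TPM for Potri.001G051600 (the others at 46.5 to 56.1 TPM) and at 82.3 TPM for Potri.001G051500 (the others at 16.9 to 18.6 TPM). In the same line a thymidine kinase homolog (Potri.016G009951) was at 5.70 TPM in replicate 1 (the others at 7.16 to 7.48 TPM), Potri.014G183300 at 8.76 TPM in replicate 1 (the others at 10.6 to 10.8 TPM) and a methionine synthase homolog (Potri.004G190900) at 35.5 TPM in replicate 4 (the others at 77.9 to 86.6 TPM). In OE line 7, the homolog of the growth-regulating factor GRF7 (Potri.012G022600) was at 8.30 TPM in replicate 3 (the others at 17.9 to 19.3 TPM).

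In controls, GRF7 was at 22.5 TPM in replicate 1 (the others at 16.3 to 16.7 TPM), the SVP homolog (Potri.007G010800) at 14.97 TPM in replicate 1 (the others at 9.22 to 9.84 TPM), AGP14 (Potri.003G220901) at 3321 TPM in replicate 2 (the others at 4020 to 4082 TPM) and HMGR1 (Potri.009G169900) at 0.816 TPM in replicate 2 (the others at 0.078 to 0.122 TPM). The other 4 cases lay near 0: ZFP11 (Potri.002G041700) at 0.112 TPM, a potato inhibitor I homolog (Potri.006G212200) at 0.125 TPM and OMT1 (Potri.001G451100) at 0.039 TPM, each in replicate 4 with the others listed at 0, and a protease inhibitor homolog (Potri.019G080600) at 0.181 TPM in replicate 3 (the others at 0.099 to 0.105 TPM).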

How the results depend on the processing

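No named gene that passed OE against control, and no named gene apart between the sets, reversed its sign under the alternatives run. Balances and list medians did. OE against control had more falls (8469) than rises (5511), and more rises (7514) than falls (6780) with median ratio scaling; without control replicates 1 and 2 together there were 3822 rises and 3050 falls. With a minimum mean TPM of 5, the median differences of mitotic genes (0.69, then -0.12 over 1 gene), core histones (0.05, then -0.09) and SAUR genes (0.32, then -0.06) turned negative, and medians close to 0 in 8 other lists also changed sign under some alternative. The 360 genes higher in the first set became 175 with a pseudocount of 5, 1298 with any difference and 56 with a difference of at least 2. They became 1019 without line 2 replicates 1 and 2 together. When only a difference of 1 within each line was asked, in place of being apart, 239 genes were higher in the first set. The 560 genes higher in the second set became 317 with a pseudocount of 5, 2396 with any difference and 131 with a difference of at least 2. Lists of at least 5 genes with at least 30% of them apart numbered 5, then 3 with a pseudocount of 5 and 1 with no filter. The 313 genes with all controls above the second set became 140 with a pseudocount of 5.

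Without each library in turn, the genes apart numbered 294 to 795 (higher in the first set) and 440 to 835 (higher in the second), the lists 2 to 11 and the genes with controls above the second set 244 to 633. Without line 2 replicate 1 the values were 795 genes higher in the first set, 11 lists and 633 genes with controls above, and without line 2 replicate 2 they were 608, 8 and 528. Without line 2 replicate 4 there were 3 lists, and without line 7 replicate 3 there were 2. Rises in OE leaves ranged over 4726 to 5770 and falls over 6157 to 8472. Of the genes apart, 185 to 263 of those higher in the first set fell and 313 to 441 of those higher in the second rose. The ZFP11 change ranged over 10.38 to 10.46, and line 7 against line 2 gave 0 genes each time. Falls in OE leaves numbered 5028 at a mean TPM of at least 5 and 3050 without control replicates 1 and 2 together, where 85 and 185 of the genes apart passed.

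Whether the replicate numbers pair the libraries was not settled. The deviations of 12 same-numbered pairs correlated at -0.47 to 0.41, and 9 pairs were above 0.1. Differently numbered pairs were not set beside them. With the number as a replicate block, line 7 against line 2 again gave 0 genes (444 at an unadjusted p under 0.05), and OE against control gave 5408 rises and 8337 falls. Over 147 named genes and their alternatives, the call of OE against control was lost in 203 of the values (38 genes) and gained in 45 (17 genes). Depth is unknown, and low TPM are the least certain.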
